A study of Homo sapiens with 10 samples.

Results

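The genes described here are 35 lysosomal enzymes and membrane proteins, taken by gene symbol from a count table of 60898 rows. Each of the 35 symbols was found on exactly 1 row, and 34 of the 35 were among the 21063 genes with enough counts to be tested. The gene left out of the tests, CTSF, had at most 5 counts in any library and is listed below with its counts only. By role, 6 members are proteins of the lysosomal membrane, 10 are proteases, 8 are glycosidases or a sulfatase, 6 are lipid hydrolases and their activators, 3 are subunits of the proton pump and 2 are transcription factors.

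The RNA came from 10 libraries labelled as neural progenitor cells (NPCs) that were derived from the human embryonic stem cell line H1, a long-established line. STAMBP encodes a deubiquitinase of the endosomal sorting route, and the study asks what its loss changes in these cells. WT stands for 2 libraries without an edit, KO1 and KO2 for 2 libraries each with the genotype STAMBP-KO, KO+STAMBP for 2 libraries with the genotype STAMBP-KO+STAMBP, and KO+CFLAR for 2 libraries with the genotype STAMBP-KO+CFLAR. By these labels alone, every group other than WT has the knockout in its background. Whether KO1 and KO2 are clones, which of them was given a construct, what promoter drives it and whether paired libraries are separate cultures are not stated in the labels, so p-values here reflect only how much these particular libraries vary, which may be technical variation.

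The labels were checked on the edited and the added gene first. Levels are given as CPM, read counts per 1000000 with TMM scaling. WT libraries had 43.4 and 47.2 CPM of STAMBP, and the knockout libraries KO1 and KO2 had 19.5, 16.9, 19.2 and 18.9 CPM. STAMBP RNA was thus lower in the knockout than in WT but not absent. It stood at 40.4 and 45.3 CPM in KO+STAMBP and at 42.9 and 40.05 CPM under the label KO+CFLAR. CFLAR stood at 34.2 and 30.4 CPM in WT, 257, 248, 247 and 264 in the knockout, 32.1 and 32.1 CPM in KO+STAMBP and 31.3 and 29.4 CPM under the label KO+CFLAR. In those last libraries STAMBP was therefore near its WT level and CFLAR was not above it, which goes against the label, and no direction drawn from them below can be tied to added CFLAR.

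The cell type label was checked on marker lists. Of the neural progenitor markers, SOX1 was at 147 CPM in WT against 0.480 CPM in the knockout, FABP7 at 1124 and 0.446 CPM, and PAX6 at 181 and 208 CPM, as means. The summed level of 10 progenitor markers was 7627 to 7705 CPM in WT, 3222 to 3235 CPM in the knockout and 3974 to 4168 CPM in the rescued libraries (KO+STAMBP and those labelled KO+CFLAR). Rescue and rescued are used here only as names for these groups and state no effect of a construct. The summed level of 11 epithelial markers was 31.9 to 33.9 CPM in WT, 8351 to 8824 CPM in the knockout and 54.0 to 63.4 CPM in the rescued libraries. Of the 10 progenitor markers, 8 were called lower in the knockout than in WT (as defined below), 1 higher and 1 was not called. Among all tested genes 39.4% were called lower and 36.8% higher. All 11 epithelial markers were called higher. The knockout libraries thus nearly lacked SOX1 and FABP7, though not PAX6, and held keratins and claudins at high level. No statement below assumes that the knockout libraries are NPCs.

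Lysosomes are acidic compartments in which hydrolases break down proteins, glycans and lipids brought in by endocytosis and autophagy. Most soluble hydrolases are tagged with mannose 6-phosphate in the Golgi and carried to the lysosome by its receptors, while the proton pump acidifies the lumen and heavily glycosylated membrane proteins line it. TFEB and TFE3 are transcription factors that bind a short palindrome in the promoters of many lysosomal genes, an arrangement known as the CLEAR network, and inherited loss of many of the enzymes causes storage disease of the brain.

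The letters of that palindrome can be seen directly in some of the members' promoters. Promoters (250 bases before to 50 bases after the start of the gene, RefSeq, GRCh38.p14) were matched by symbol for 27 of the 35 members and searched on both strands for TCACGTGA and for the shorter CACGTG that lies inside it. TCACGTGA was found in 5 of 27 members' promoters (18.5%) and in 344 of all 35116 promoters of that length (0.980%). CACGTG was found in 9 of 27 members' promoters (33.3%), those 5 included, and in 7.26% of all promoters. For the members the first promoter listed per symbol was used, while the background counts every promoter, so the shares are not fully alike. The palindrome was already known from lysosomal promoters. These shares therefore say nothing about the libraries and were not tested. The 5 with the longer form were LAMP1, MCOLN1, CTSA, GAA and ATP6V0D1, and CD63, CTSD, CTSF and NEU1 held the shorter form alone. The promoters of 3 members with the longer form are shown, followed by 2 members in whose window neither form was found, each read 5′ to 3′ up to the last base before the start that the RefSeq table gives, with CACGTG or the full TCACGTGA in capitals. In GENCODE release 29 the genes GLB1 and TFEB begin further upstream, so that both stretches lie inside the gene there, as do the last 25 bases of the GAA stretch.
LAMP1 (chr13:113297039-113297238, plus strand): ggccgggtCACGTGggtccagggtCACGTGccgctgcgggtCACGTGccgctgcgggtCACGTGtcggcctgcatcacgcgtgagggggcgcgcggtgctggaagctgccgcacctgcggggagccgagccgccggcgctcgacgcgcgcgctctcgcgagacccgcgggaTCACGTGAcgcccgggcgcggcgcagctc
MCOLN1 (chr19:7522524-7522623, plus strand): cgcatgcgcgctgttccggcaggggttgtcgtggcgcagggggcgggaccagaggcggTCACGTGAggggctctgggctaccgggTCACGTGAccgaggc
GAA (chr17:80101481-80101580, plus strand): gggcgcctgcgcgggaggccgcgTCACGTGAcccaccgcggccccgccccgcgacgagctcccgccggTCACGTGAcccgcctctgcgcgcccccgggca
GLB1 (chr3:33096823-33096922, minus strand): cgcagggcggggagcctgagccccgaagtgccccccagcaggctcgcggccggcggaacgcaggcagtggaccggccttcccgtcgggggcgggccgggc
TFEB (chr6:41735609-41735708, minus strand): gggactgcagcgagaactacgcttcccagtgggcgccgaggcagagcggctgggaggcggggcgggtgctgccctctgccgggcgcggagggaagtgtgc
In LAMP1 the first C of each CACGTG lies at -192, -176, -159, -142 and -28 from the start, and a further match at -1 runs across the start. Numbered by that same C, MCOLN1 has matches at -41 and -14, and GAA at -76 and -31. A match describes these letters and not a bound site, and its absence says nothing of the factors. The knockout changes of the 5 genes with the longer form ranged from a log2 change of 0.29 (ATP6V0D1) to 1.30 (GAA). Of those with the shorter form alone, CD63 changed by 1.17, CTSD by 1.61 and NEU1 by 1.87, and CTSF could not be tested. The matched members without either form ranged from -0.46 (PPT1) to 3.88 (CTSH), with GLB1 at 1.31 and TFEB at 3.24. These groups differ in size, so their ranges cannot be compared, and a link between motif and change was not tested.

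In the knockout libraries KO1 and KO2, lysosomal transcripts were higher than in WT almost throughout the set. Of the 34 members tested, 31 were called higher in the knockout than in WT, 2 were called lower (PPT1 and SCARB2) and 1 was not called (LIPA). Called means a Benjamini-Hochberg adjusted p under 0.05 in edgeR's quasi-likelihood test, adjusted over all 21063 genes, with the means of KO1 and KO2 given equal weight against WT. The background is high in this comparison: 36.8% of all tested genes were called higher and 39.4% lower. The members' median log2 change was 1.26 (quartiles 0.63 and 1.96), beside -0.043 for all tested genes (quartiles -1.03 and 0.78).

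At least a 2-fold rise was called in 22 of the 34 members and a fall of that size in 0, beside 20.0% and 24.1% of all tested genes. A rise of at least 4-fold was called in 8 members, of 2 to 4-fold in 14 and of less in 9. The 4 knockout libraries all lay above the other 6 libraries in 30 of the 35 members and all below them in 1 (PPT1), while they overlapped in SCARB2, MCOLN1, LIPA and CTSF. Among all tested genes the same held for 33.9% above and 34.8% below. Added up over the 35 members, the level was 3234 to 3281 CPM in WT, 6752 to 6885 CPM in the knockout, 3065 to 3085 CPM in KO+STAMBP and 2901 to 2928 CPM under the label KO+CFLAR. The knockout sum was 2.09 times that of WT, and the groups did not overlap.

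**Figure D1:**
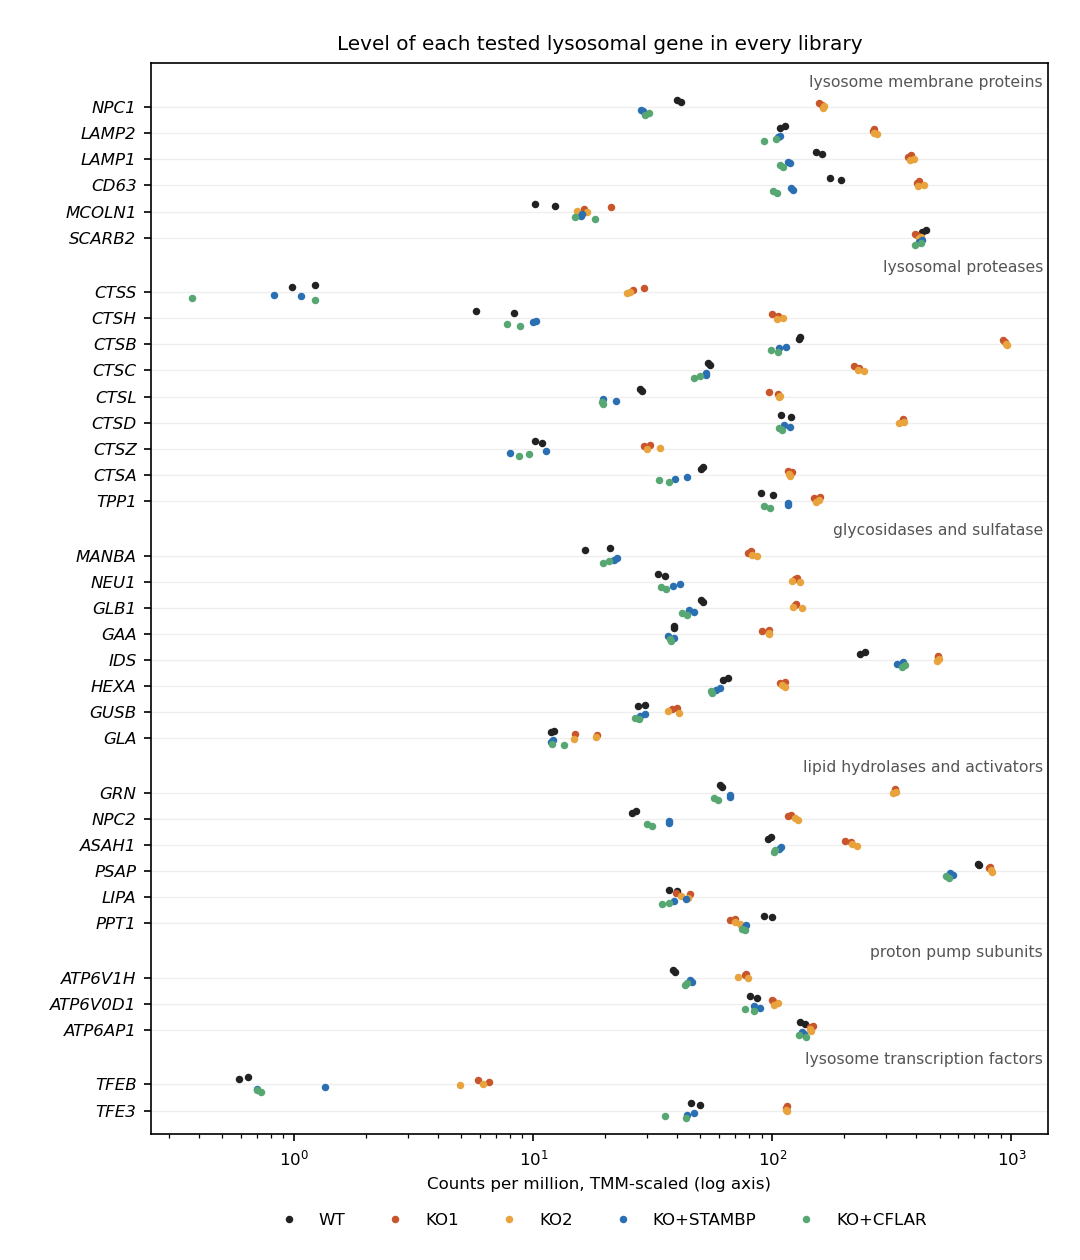
Level of each of the 34 tested lysosomal genes in all 10 libraries, in TMM-scaled CPM on a log axis, with 1 point per library coloured by group and genes ordered within each role by their knockout change. The KO1 and KO2 points lie to the right of all others in most rows, most widely in CTSS, CTSH, CTSB and TFEB, and PPT1 is the row in which they lie to the left.

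**Figure D2:**
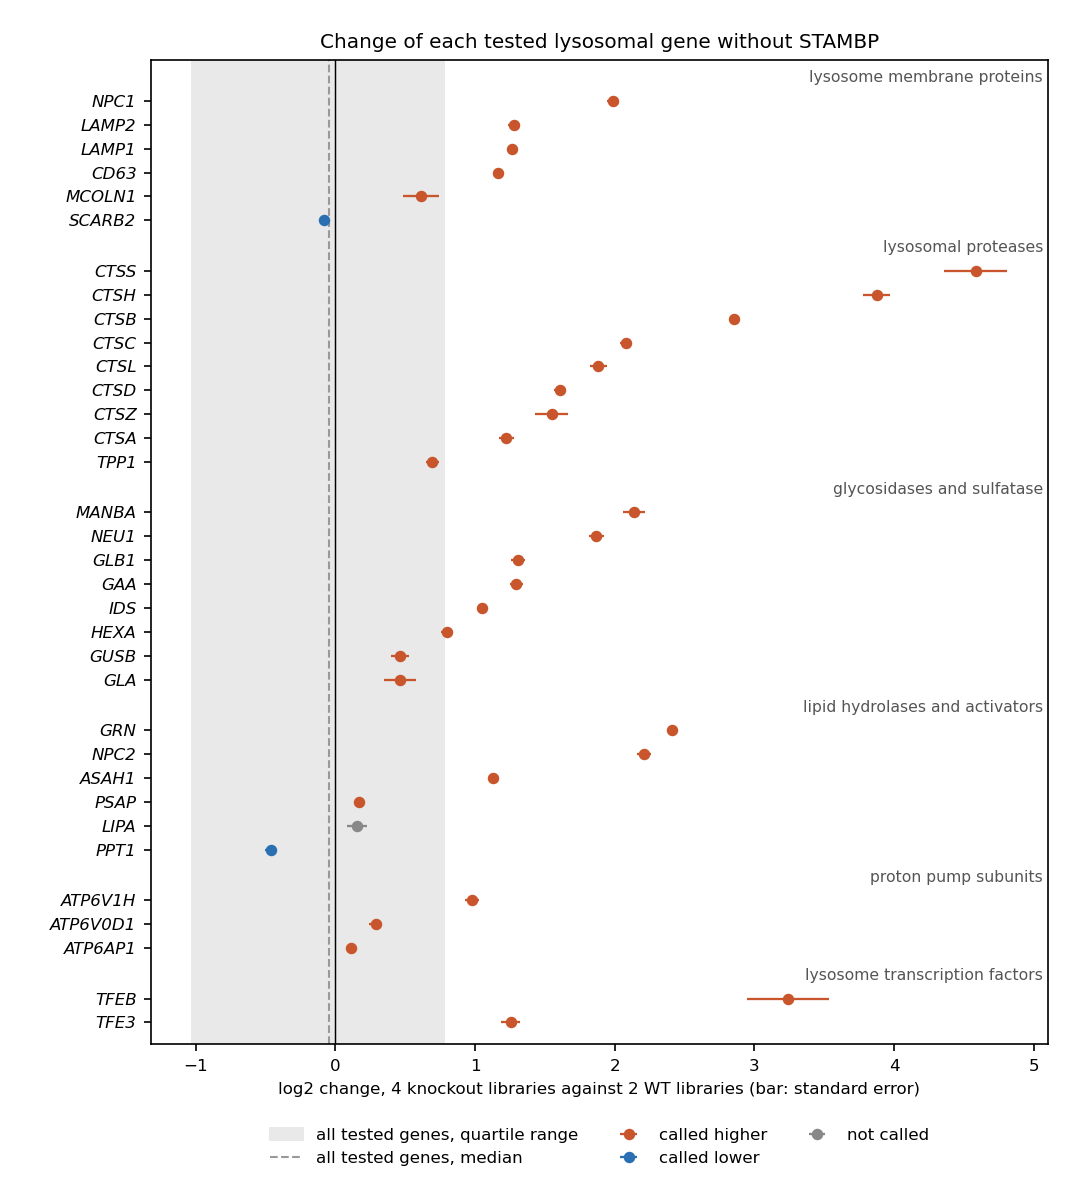
Fitted log2 change of each tested lysosomal gene in the 4 knockout libraries against the 2 WT libraries, with its standard error as a bar, beside the median and the quartile range of all 21063 tested genes. The proteases reach from 0.69 (TPP1) to 4.58 (CTSS), while the proton pump subunits lie between 0.11 and 0.98.

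Among the membrane proteins, 5 of 6 rose in the knockout and SCARB2 was called lower, with a median log2 change of 1.22. NPC1 (chr18:23506184-23586898, minus strand; here and below GRCh38, whole gene in GENCODE release 29), which carries cholesterol out of the lysosome, stood at 40.04 and 41.3 CPM in WT against 156, 162, 165 and 163 CPM in the knockout. It stood at 28.1 and 28.9 CPM in KO+STAMBP and 30.3 and 29.4 CPM under the label KO+CFLAR. The 4 knockout libraries were the highest and the rescued libraries lay below WT, with no overlap, and the knockout change was 1.99 ± 0.043 (log2 ± SE, adjusted p = 7.8e-15).

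LAMP1 (chr13:113297241-113323672, plus strand) and LAMP2 (chrX:120427827-120469365, minus strand) encode the most abundant glycoproteins of the lysosomal membrane. LAMP1 was at 153 and 162 CPM in WT, 379, 370.3, 390.2 and 376 in the knockout, 116 and 118 CPM in KO+STAMBP and 107 and 111 CPM under the label KO+CFLAR. LAMP2 was at 113 and 108 CPM in WT, 265, 264, 266 and 274 in the knockout, 107 and 105 CPM in KO+STAMBP and 104 and 92.3 CPM under the label KO+CFLAR. Both were high in the knockout libraries alone, by 1.27 ± 0.036 and 1.28 ± 0.045 (adjusted p = 1.8e-13 and 2.0e-12), and all 4 rescued libraries lay below both WT libraries, by a small margin in LAMP2 (at most 107.2 against at least 107.7 CPM).

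The 3 other membrane proteins differed in size of change. CD63, a tetraspanin of late endosomes and exosomes, rose by 1.17 ± 0.042 (adjusted p = 2.9e-12). MCOLN1, a calcium channel of the lysosomal membrane, rose by 0.61 ± 0.13 (adjusted p = 5.3e-04), from 10.2 and 12.3 CPM in WT to 21.03, 16.3, 15.1 and 16.7 CPM in the knockout. SCARB2, the receptor that brings glucocerebrosidase to the lysosome, stood at 437 and 421 CPM in WT against 393, 402, 417 and 409.7 CPM in the knockout. Its fall of 0.083 on the log2 scale (SE 0.033, adjusted p = 0.0335) was not called with DESeq2 (adjusted p = 0.141), with median-of-ratios factors in edgeR (0.147) or with a filter of at least 50 counts in 2 libraries (0.0572), nor without WT replicate 1, KO1 replicate 1 or KO2 replicate 2 (adjusted p = 0.170, 0.0647 and 0.0746).

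All 9 tested proteases rose in the knockout, with a median log2 change of 1.88, and the 3 with the largest change were cysteine cathepsins. CTSS (chr1:150730196-150765957, minus strand), cathepsin S, which trims the invariant chain in antigen-presenting cells, stood at 1.22 and 0.978 CPM in WT, 29.02, 26.2, 25.5 and 24.7 in the knockout, 0.825 and 1.07 CPM in KO+STAMBP and 0.373 and 1.22 CPM under the label KO+CFLAR. Outside the knockout it was thus only a few times the level that 3 counts give, and its change was 4.58 ± 0.22 (adjusted p = 9.5e-11). CTSH (chr15:78921058-78949574, minus strand), cathepsin H, an aminopeptidase, stood at 5.76 and 8.31 CPM in WT, 99.6, 105, 110.2 and 105 in the knockout, 10.2 and 9.997 CPM in KO+STAMBP and 7.73 and 8.80 CPM under the label KO+CFLAR. The knockout libraries were again the 4 highest without overlap, at a change of 3.88 ± 0.096 (adjusted p = 3.6e-14).

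CTSB, cathepsin B, stood at 131 and 129 CPM in WT, 923, 936, 948 and 957 in the knockout, 114 and 107 CPM in KO+STAMBP and 98.7 and 106 CPM under the label KO+CFLAR. The knockout mean was 7.24 times the WT mean, with a log2 change of 2.86 ± 0.04 (adjusted p = 7.7e-17), and the rescued libraries lay below WT. Of the summed CPM of the 35 members, CTSB took 3.99% in WT and 13.8% in the knockout, while PSAP took 22.3% and 11.96%.

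The other proteases changed by less. Cathepsin C (CTSC), which activates granule serine proteases, rose by 2.08 ± 0.044, cathepsin L (CTSL) by 1.88 ± 0.059, the aspartic protease cathepsin D (CTSD) by 1.61 ± 0.045 and the carboxypeptidase cathepsin Z (CTSZ) by 1.55 ± 0.12. CTSA, a carboxypeptidase that also protects neuraminidase and beta-galactosidase, rose by 1.22 ± 0.053, and the tripeptidyl peptidase TPP1 rose by 0.69 ± 0.048. The adjusted p of these 6 ranged from 5.5e-15 (CTSC) to 1.6e-08 (CTSZ). CTSF, cathepsin F, had 1 and 2 counts in WT, 0, 1, 2 and 0 in the knockout, 5 and 1 in KO+STAMBP and 3 and 2 in the libraries labelled KO+CFLAR. A difference in CTSF was not detectable at this depth, where 3 counts correspond to 0.136 to 0.198 CPM. A gene on the same strand, AC068580.4, covers 41.7% of the CTSD exons and was itself at 6.04 CPM in WT and rose to 15.9 CPM without STAMBP, beside 114 and 349 CPM for CTSD.

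All 8 genes of the glycosidase and sulfatase class rose, with a median log2 change of 1.17. MANBA (chr4:102630770-102760994, minus strand), beta-mannosidase, stood at 21.01 and 16.5 CPM in WT, 81.2, 79.04, 81.8 and 86.03 in the knockout, 22.4 and 21.7 CPM in KO+STAMBP and 20.7 and 19.6 CPM under the label KO+CFLAR. NEU1 (chr6:31857659-31862906, minus strand), the neuraminidase that removes sialic acid, stood at 33.3 and 35.5 CPM in WT, 126, 125, 121 and 130.4 in the knockout, 40.95 and 38.5 CPM in KO+STAMBP and 34.05 and 35.7 CPM under the label KO+CFLAR. In both genes the knockout libraries lay far above an otherwise narrow range, with changes of 2.14 ± 0.077 and 1.87 ± 0.053 (adjusted p = 2.8e-12 and 1.7e-13). GLB1, beta-galactosidase, followed at 50.5 and 51.3 CPM in WT, 125, 124, 122 and 133 in the knockout, 44.9 and 46.8 CPM in KO+STAMBP and 42.01 and 43.9 CPM under the label KO+CFLAR, a change of 1.31 ± 0.049 (adjusted p = 4.1e-12).

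Alpha-glucosidase (GAA), which degrades glycogen, rose by 1.30 ± 0.048, iduronate 2-sulfatase (IDS) by 1.05 ± 0.035 and the alpha subunit of beta-hexosaminidase (HEXA) by 0.80 ± 0.043. Beta-glucuronidase (GUSB) and alpha-galactosidase A (GLA) rose least in this class, by 0.46 ± 0.065 and 0.46 ± 0.12 (adjusted p = 1.3e-05 and 0.00228). GUSB and IDS have pseudogene copies, and a gene on the same strand, AC244197.3, covers 16.5% of the IDS exons, so their counts are uncertain to the extent that the authors' counting split such reads. AC244197.3 itself was called lower, by 0.33 ± 0.076 on the log2 scale (adjusted p = 0.00112), where IDS was called higher.

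The lipid hydrolases and activators were the most mixed class, with 4 of 6 called higher, 1 called lower, 1 not called and a median log2 change of 0.65. GRN (chr17:44345086-44353102, plus strand), progranulin, a secreted protein that is split into granulins in the lysosome, stood at 60.6 and 61.4 CPM in WT, 325, 325, 328 and 321 in the knockout, 66.6 and 66.6 CPM in KO+STAMBP and 56.7 and 59.1 CPM under the label KO+CFLAR. NPC2 (chr14:74476192-74494177, minus strand), which hands cholesterol to NPC1, stood at 26.8 and 25.9 CPM in WT, 119, 116, 124 and 128 in the knockout, 36.98 and 36.9 CPM in KO+STAMBP and 29.9 and 31.3 CPM under the label KO+CFLAR. The knockout libraries stood apart in both, at changes of 2.41 ± 0.037 and 2.21 ± 0.049 (adjusted p = 2.0e-16 and 9.3e-15), and all 4 rescued libraries lay above WT in NPC2. ASAH1, acid ceramidase, was at 98.4 and 96.1 CPM in WT, 201, 212, 215 and 225 in the knockout, 109 and 107 CPM in KO+STAMBP and 102 and 101 CPM under the label KO+CFLAR, a change of 1.13 ± 0.039 (adjusted p = 1.6e-12).

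PPT1 (chr1:40071461-40097727, minus strand), the thioesterase that removes palmitate from proteins, went the other way. It stood at 92.4 and 99.8 CPM in WT, 69.7, 66.7, 69.8 and 73.1 in the knockout, 77.6 and 77.1 CPM in KO+STAMBP and 74.6 and 77.1 CPM under the label KO+CFLAR. The knockout libraries were the 4 lowest, the WT libraries the 2 highest and the rescued ones lay between them, and the knockout change was -0.46 ± 0.045 (adjusted p = 2.6e-07). The gene CAP1, on the opposite strand, covers 23.4% of the PPT1 exons and was higher in the knockout (148 CPM in WT, 454 in the knockout, a log2 change of 1.61 ± 0.034). No label or note used here gives the authors' strand setting, so reads of the pair cannot be told apart where they overlap.

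PSAP, the precursor of the saposins that help lipid hydrolases, was at 723 and 730.1 CPM in WT against 813, 806, 819 and 826 CPM in the knockout, a change of 0.17 ± 0.027 (adjusted p = 6.0e-05) that became -0.0088 when counts were scaled by library size alone. LIPA, lysosomal acid lipase, was at 36.8 and 39.7 CPM in WT against 39.6, 45.4, 41.5 and 44.5 CPM in the knockout, with a log2 difference of 0.16 ± 0.072 (adjusted p = 0.0633) and overlapping libraries. It was called higher with DESeq2 (adjusted p = 0.0353), with median-of-ratios factors (0.0308), with the filter of at least 50 counts (0.0401) and without KO1 replicate 1 (0.0202).

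The 3 proton pump members all rose, ATP6V1H nearly 2-fold and the others by less, with a median log2 change of 0.29. ATP6V1H, a subunit of the part that splits ATP, was at 38.5 and 38.9 CPM in WT, 77.3, 76.96, 71.96 and 78.9 in the knockout, 45.4 and 46.2 CPM in KO+STAMBP and 44.1 and 42.95 CPM under the label KO+CFLAR. ATP6V0D1, of the membrane part, was at 80.5 and 85.8 CPM in WT, 99.5, 100.2, 106 and 102 in the knockout, 83.7 and 88.8 CPM in KO+STAMBP and 76.9 and 83.5 CPM under the label KO+CFLAR. ATP6AP1, an accessory subunit, was at 131 and 137 CPM in WT, 148, 143, 143 and 144 in the knockout, 133 and 135 CPM in KO+STAMBP and 129 and 138 CPM under the label KO+CFLAR. The knockout libraries were the 4 highest in each of the 3, at changes of 0.98 ± 0.051, 0.29 ± 0.047 and 0.11 ± 0.038 (adjusted p = 2.1e-10, 6.5e-05 and 0.0149), and the last became -0.062 with library size alone. The rise of ATP6AP1 was not called with no filter on low counts (adjusted p = 0.101) or without WT replicate 1 (0.211).

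Both transcription factors rose, from very different levels. TFEB (chr6:41683978-41736259, minus strand) stood at 0.640 and 0.587 CPM in WT, 5.84, 6.52, 6.15 and 4.91 in the knockout, 1.34 and 0.695 CPM in KO+STAMBP and 0.699 and 0.726 CPM under the label KO+CFLAR. TFE3 (chrX:49028726-49043486, minus strand) stood at 45.7 and 49.9 CPM in WT, 115, 114, 114 and 115 in the knockout, 46.8 and 44.1 CPM in KO+STAMBP and 35.5 and 43.4 CPM under the label KO+CFLAR. The knockout libraries did not overlap any others, and the changes were 3.24 ± 0.29 and 1.26 ± 0.066 (adjusted p = 1.3e-07 and 2.1e-10). Per length, TFE3 was at 26.7 CPM per kb in the knockout and TFEB at 1.04 CPM per kb. These factors act when they enter the nucleus, which RNA levels do not show.

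Levels between genes can be compared only per length, here as CPM per kb of the union of GENCODE release 29 exons. In WT the order was led by PSAP (224 CPM per kb), CD63 (69.6), CTSD (36.6), LAMP1 (27.4) and ATP6AP1 (27.4). In the knockout it was led by PSAP (252 CPM per kb), CD63 (157), CTSB (127), CTSD (112) and GRN (88.3). CTSB thus went from rank 10 to rank 3 and GRN from rank 11 to rank 5, while SCARB2 went from rank 7 to rank 16 and PPT1 from rank 9 to rank 25. Exon unions hold exons of rare transcripts, which lowers the value of genes with many of them.

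**Figure D3:**
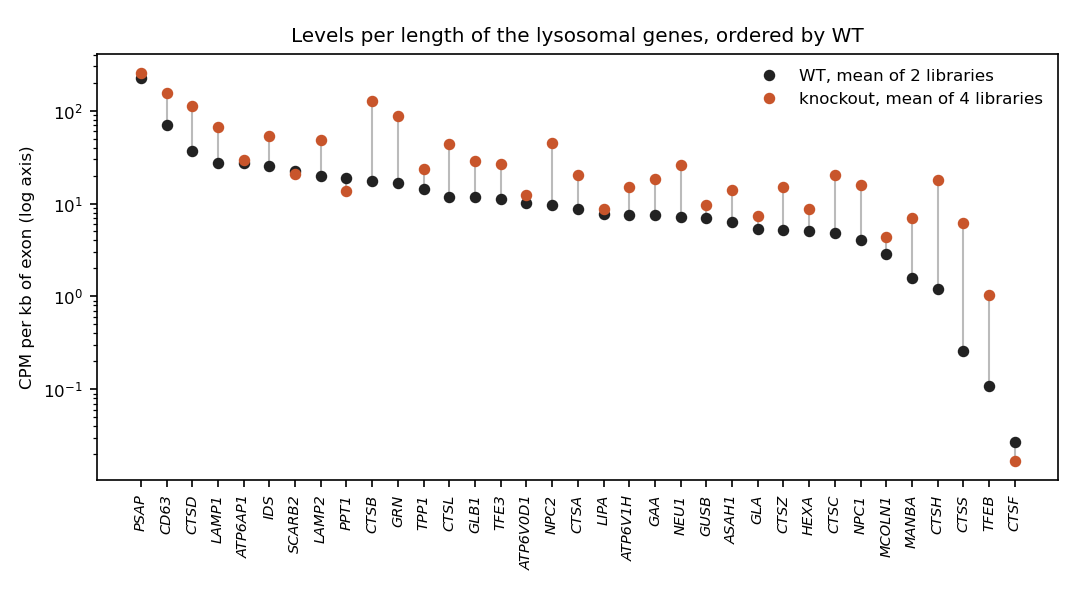
Mean level per length of all 35 lysosomal genes in WT (2 libraries) and in the knockout (4 libraries), in CPM per kb of exon on a log axis, ordered by the WT level, with a line joining the means of a gene. PSAP is highest in both groups, and the joining lines are longest for CTSS, CTSH, TFEB and CTSB.

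The rise of the members went along with changes in markers of other cell types. All 11 epithelial markers were higher in the knockout, all 10 neuron markers lower (summed 4066 to 4099 CPM in WT against 824 to 847 CPM in the knockout), and a list of 10 neural crest and mesenchyme markers summed to 120 to 128 CPM in WT against 2170 to 2255 CPM in the knockout. That sum is mostly COL1A1 and COL1A2, and of the 9 tested genes of the list 6 were called higher and 2 lower (PDGFRB and DCN). Cathepsin S and CD68 are also markers of macrophages, so 12 genes of microglia and macrophages were examined. Their sum was 1.16 to 1.32 CPM in WT, 17.6 to 19.5 CPM in the knockout and 2.10 to 2.41 CPM in the rescued libraries. CSF1R, at 15.5 CPM in the knockout, made up most of it, 10 of the 12 were under 1 CPM in the knockout, and C1QA and C1QB were at 0 counts in all 10 libraries. The part of any cell type in the members' changes was not tested, and in bulk RNA fewer cells of a type and less RNA per cell cannot be told apart.

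Other genes of the lysosomal pathway were described from 6 lists of genes that are not members, and their counts stand beside the 36.8% higher and 39.4% lower among all tested genes. Both counts include genes that passed the filter on low counts only through the knockout libraries. Such genes could be called only as higher in the knockout. Of 30 further hydrolases, 19 were called higher and 6 lower in the knockout (median log2 change 0.47). CTSV, cathepsin V, a close relative of cathepsin L, was at 4.91 CPM in WT against 186 to 198 CPM in the knockout, a change of 5.29 ± 0.084. Alpha-fucosidase (FUCA1) rose by 1.997 ± 0.09.

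Of 22 further membrane proteins and transporters, 17 were called higher and 3 lower (median log2 change 0.56). LAMP3 was at 0.0535 CPM in WT, where it had 2 counts in all, and at 7.82 to 9.64 CPM in the knockout. LAMP3 passed the filter on low counts only through the knockout libraries. CD68, a LAMP family member, went from 0.424 CPM to 17.6 to 22.2 CPM, a change of 5.50 ± 0.22, and the sialic acid exporter SLC17A5 rose by 2.55 ± 0.085.

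The proton pump showed subunits of opposite direction. Of 19 further subunits, 13 were called higher and 4 lower (median log2 change 0.29). Among those called with a mean of at least 2 CPM over all 10 libraries, the largest changes were falls of ATP6V1G2 and ATP6V0E2, forms known from brain, by 3.77 and 3.21 on the log2 scale (SE 0.12 and 0.056), from 35.9 to 2.66 CPM and from 102 to 11.1 CPM. ATP6V0E1, the widely expressed counterpart of the latter, rose by 1.94 ± 0.071, from 23.7 to 91.3 CPM. ATP6V0D2, under that mean, had 0 counts in WT and was at 2.22 CPM in the knockout, at least 12.7-fold higher than 3 counts in the shallower WT library. ATP6V0D2 likewise passed the filter only through the knockout libraries, so it could be called only as higher.

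The list named mannose 6-phosphate sorting also holds SORT1 and subunits of the AP-3 adaptor, so it covers sorting to the lysosome more widely. It had 10 of 15 genes called higher and 3 lower (median log2 change 0.39). IGF2R, the large mannose 6-phosphate receptor, rose by 2.08 ± 0.038, from 172 to 730.3 CPM. AP1M2, the AP-1 adaptor subunit of epithelial cells, went from 0.165 CPM in WT, about the level of 3 counts, to 61.4 CPM. AP3B2, the AP-3 subunit of neurons, fell from 57.02 to 12.6 CPM.

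In the list of MiT/TFE factors and lysosomal control of mTORC1, 8 of 19 genes (42.1%) were called higher and 5 (26.3%) lower (median log2 change 0.059), with the share higher near that of all tested genes. RRAGC, a Rag GTPase that docks mTORC1 and TFEB on the lysosome, rose by 0.97 ± 0.059, while RRAGD changed by -1.17 ± 0.054 and TFEC, a relative of TFEB, by -1.61 ± 0.27. MITF, another relative, was at 6.79 CPM in WT against 7.14 CPM in the knockout and was not called (adjusted p = 0.730). Of 11 cystatins and serpins listed as inhibitors of cathepsins, 7 had enough counts to be tested. Which cathepsins each of them inhibits, and whether these are members, was not examined. Of these, 6 were called higher, 0 lower and 1 was not called (median log2 change 2.74). The gene not called lay at -2.02, and in KO1 alone against WT 1 gene of the list was called lower (-2.74). SERPINB1 was at 2.42 CPM in WT against 146 to 161 CPM in the knockout, a change of 5.95 ± 0.089, and cystatin B (CSTB) rose by 1.64 ± 0.047. CST6, cystatin E/M, had 0 counts in WT and in both rescued groups and was at 11.8 CPM in the knockout, at least 67.7-fold higher than 3 counts in the shallower WT library. It passed the filter on low counts only through the knockout libraries, so it could be called only as higher.

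**Figure D4:**
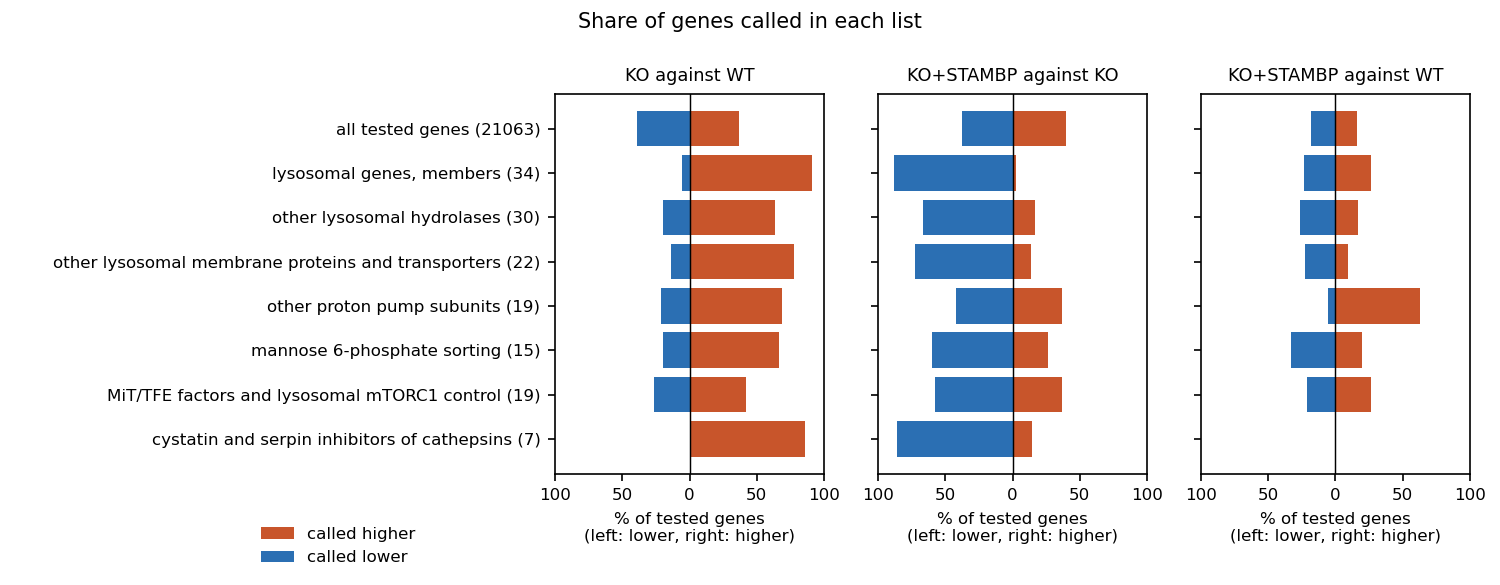
Share of the tested genes of each list called higher (right) or lower (left) in 3 comparisons, with the number of tested genes in parentheses and all tested genes on top. Of the lysosomal members, 31 of 34 lie to the right in KO against WT and 30 of 34 to the left in KO+STAMBP against KO.

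KO+STAMBP was compared with the knockout to see whether these levels returned towards WT under that label. STAMBP itself was near its WT level there, as it was under the label KO+CFLAR. A return therefore cannot be tied to added STAMBP from these RNA levels. Of the 34 members, 30 were called lower, 1 higher (PPT1) and 3 were not called (SCARB2, MCOLN1 and LIPA), beside 37.8% lower and 40.1% higher among all tested genes. The members' median log2 change was -1.40, beside 0.039 for all. In the libraries labelled KO+CFLAR, 31 were lower than in the knockout, 1 higher (PPT1) and 2 not called (SCARB2 and MCOLN1), with a median of -1.54, beside 38.0% lower and 40.0% higher among all. In these libraries the PPT1 call was lost with DESeq2 (adjusted p = 0.134), with median-of-ratios factors (0.0783) and without KO1 replicate 2, KO2 replicate 1 or KO+CFLAR replicate 2 (0.0614, 0.0660 and 0.155), and LIPA was not called without KO+CFLAR replicate 2 (0.0573). Both comparisons use the same 4 knockout libraries as the comparison of KO with WT, so that a change towards WT in all of them partly repeats the same measurements.

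By class, all 9 tested proteases and all 8 glycosidases and sulfatase genes were called lower than the knockout in each rescue. So were all 3 pump subunits and both factors. Scaled by library size alone, ATP6AP1 turned higher, by 0.103 in KO+STAMBP and 0.0827 under the label KO+CFLAR. GLA was then called in neither (adjusted p = 0.0588 and 0.145), and ATP6V0D1 not in KO+STAMBP (0.620). The ATP6AP1 call was also lost in both with no filter on low counts (0.108 and 0.0960). Without KO+STAMBP replicate 1 or 2 its change was -0.085 or -0.113, and without KO+CFLAR replicate 1 it was -0.065. CTSB changed by -3.09 ± 0.041 in KO+STAMBP and -3.20 ± 0.041 under the label KO+CFLAR, and CTSS by -4.79 ± 0.23 and -5.02 ± 0.23. GRN changed by -2.29 ± 0.037 and -2.49 ± 0.037, and NPC1 by -2.50 ± 0.046 and -2.44 ± 0.044. IDS changed by -0.52 ± 0.034 and -0.48 ± 0.033, beside its rise of 1.05 in the knockout. MCOLN1 differed from the knockout by -0.12 ± 0.12 (adjusted p = 0.390) and -0.066 ± 0.12 (adjusted p = 0.622).

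How near the rescued libraries came to WT was read from their own comparison with WT. In KO+STAMBP, 9 members were called higher than WT, 8 lower and 17 not called, beside 16.4% higher and 18.5% lower among all tested genes, with a median log2 change of -0.021. In the libraries labelled KO+CFLAR, 4 were higher, 13 lower and 17 not called, beside 15.8% and 17.9% of all, with a median of -0.078. These 2 comparisons share the WT libraries. The counts of higher members rest on single libraries. In KO+STAMBP they were 4 without its replicate 1, 6 without its replicate 2 and 5 without WT replicate 1, with 8, 7 and 8 lower. Under the label KO+CFLAR, 1 was higher and 12 lower without replicate 2 of that group.

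**Figure D5:**
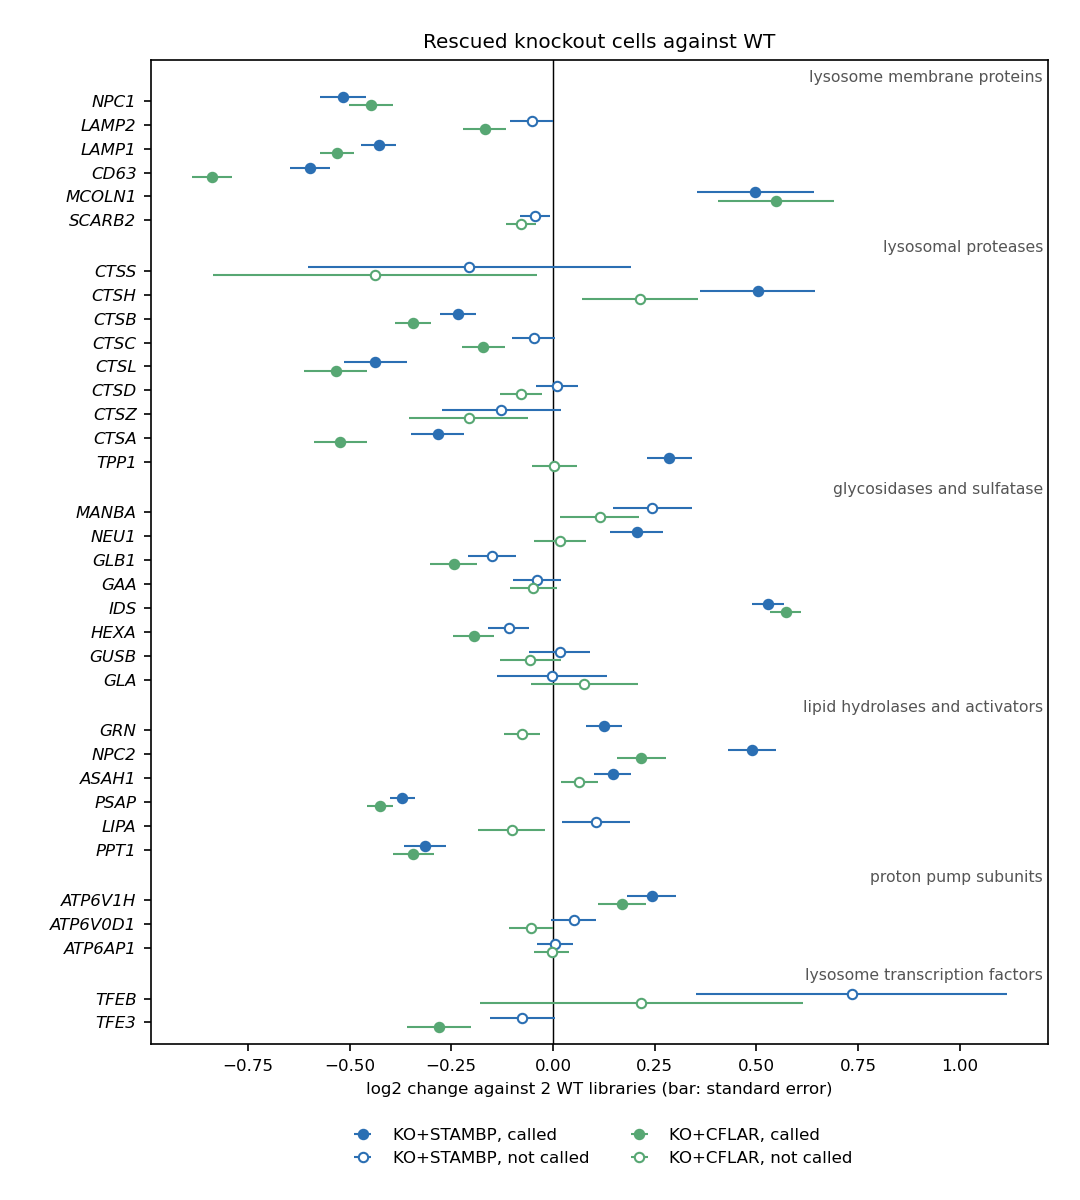
Fitted log2 change against the 2 WT libraries of each tested lysosomal gene in KO+STAMBP (blue) and in the libraries labelled KO+CFLAR (green), with standard errors as bars and filled points where the gene was called. Among the called genes, CD63 lies furthest to the left and IDS furthest to the right in both groups.

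Ranked by the mean of their 2 changes, the members furthest below WT among those called lower in both rescues were CD63, CTSL, NPC1 and LAMP1. CD63 was at 174 and 193 CPM in WT, 409, 403, 429 and 408 in the knockout, 120.1 and 122 CPM in KO+STAMBP and 101 and 105 CPM under the label KO+CFLAR. It was thus high in the knockout and below WT in both rescued groups, with changes from WT of -0.60 ± 0.05 and -0.84 ± 0.05 (adjusted p = 3.6e-07 and 1.0e-08). CTSL was at 27.8 and 28.5 CPM in WT, 96.6, 106, 108 and 106 in the knockout, 19.5 and 22.1 CPM in KO+STAMBP and 19.4 and 19.5 CPM under the label KO+CFLAR, with changes from WT of -0.44 ± 0.078 and -0.53 ± 0.077 (adjusted p = 5.1e-04 and 8.3e-05). NPC1 was at 69.97% and 73.4% of WT in the 2 rescued groups, with changes of -0.52 ± 0.056 and -0.45 ± 0.054, and LAMP1 at 74.3% and 69.3%, with -0.43 ± 0.042 and -0.53 ± 0.042.

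PSAP also lay below WT, at 553 and 572 CPM in KO+STAMBP and 534 and 549 CPM under the label KO+CFLAR, a change from WT of -0.37 ± 0.031 and -0.42 ± 0.031. PPT1 stayed at 80.5% and 78.9% of WT. CTSB was at 84.98% and 78.7% of WT and CTSA at 82.1% and 69.5%. CTSA was not called in KO+STAMBP without its replicate 2 (adjusted p = 0.0649).

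The members called higher than WT in both rescues were IDS, MCOLN1, NPC2 and ATP6V1H. IDS was at 244 and 232 CPM in WT, 493, 494, 495 and 489 in the knockout, 353 and 332 CPM in KO+STAMBP and 358 and 349 CPM under the label KO+CFLAR. The rescued libraries thus lay between WT and the knockout without overlap, at changes from WT of 0.53 ± 0.039 and 0.57 ± 0.039 (adjusted p = 1.1e-07 and 4.5e-08). MCOLN1 was at 16.04 and 15.9 CPM in KO+STAMBP and 14.9 and 18.1 CPM under the label KO+CFLAR, overlapping the knockout libraries and above both WT libraries. Its changes from WT were 0.50 ± 0.14 and 0.55 ± 0.14 (adjusted p = 0.0151 and 0.00801), and neither was called without WT replicate 1 (adjusted p = 0.137 and 0.0882). In KO+STAMBP the MCOLN1 call was also lost without either library of that group (adjusted p = 0.0683 and 0.0605). NPC2 lay above WT by 0.49 ± 0.059 and 0.22 ± 0.06, and ATP6V1H by 0.24 ± 0.06 and 0.17 ± 0.059. Under the label KO+CFLAR, IDS alone of these 4 was called higher without replicate 2 of that group (adjusted p = 0.102 for MCOLN1, 0.0835 for NPC2 and 0.0771 for ATP6V1H). NPC2 was not called there without WT replicate 2 either (0.0940), and ATP6V1H was not called with DESeq2 (0.0749), with no filter on low counts (0.0672), with only the groups compared (0.0560) or without any 1 library of WT, KO1, KO+STAMBP or KO+CFLAR (0.0510 to 0.154).

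Among the lists of other genes, further proton pump subunits were called higher than WT in 12 of 19 genes and lower in 1 in KO+STAMBP, and in 7 and 1 in the libraries labelled KO+CFLAR. Of all tested genes, 16.4% were called higher and 18.5% lower in KO+STAMBP, and 15.8% and 17.9% under the label KO+CFLAR. None of the 7 tested cystatins and serpins was called in KO+STAMBP against WT in edgeR's test. An unadjusted p under 0.05 was found in 1 of them, beside 8947 of all 21063 tested genes. Under the label KO+CFLAR, SERPINB13 was called higher and CSTB lower, and 3 had an unadjusted p under 0.05, beside 8754 of all tested genes. Neuron markers summed to 5372 to 5443 CPM in the rescued libraries, above the WT range, and progenitor markers to 3974 to 4168 CPM, below it. The part of these shifts in the members' values was not tested.

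Set against each other, the libraries labelled KO+CFLAR and those of KO+STAMBP differed in 4 of 34 members, all lower in the former, and in 0 the other way, beside 0.461% lower and 0.627% higher among all tested genes. TPP1 was at 116 and 116 CPM in KO+STAMBP and 92.5 and 98.1 CPM under the label KO+CFLAR, beside 89.6 and 100.3 CPM in WT, while the knockout libraries held 158, 149, 156 and 152 CPM. The KO+STAMBP libraries were above WT and the others within its range, at a difference of -0.28 ± 0.055 (adjusted p = 0.0261). NPC2, CD63 and GRN differed by -0.27 ± 0.057, -0.24 ± 0.051 and -0.20 ± 0.044 (adjusted p = 0.0388, 0.0416 and 0.0465). Each of these 4 genes had higher values in both KO+STAMBP libraries than in both libraries labelled KO+CFLAR, but no member was called without KO+STAMBP replicate 1, without its replicate 2 or without KO+CFLAR replicate 1. Without either WT library 2 of them were called, and without either KO2 library 1.

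Each knockout was also set against WT alone. Against WT, KO1 had 31 members called higher and 2 lower (35.6% and 37.3% of all tested genes), and KO2 had 30 higher and 1 lower (35.8% and 37.3%), with the WT libraries shared by both. The member called lower in each was PPT1, at -0.50 ± 0.053 in KO1 and -0.43 ± 0.052 in KO2. CTSB changed by 2.84 ± 0.043 in KO1 and 2.87 ± 0.043 in KO2, CTSS by 4.65 ± 0.24 and 4.51 ± 0.24, and TFEB by 3.32 ± 0.32 and 3.16 ± 0.32. Between KO1 and KO2, 0 of 34 members were called by edgeR and 0 by DESeq2. An unadjusted p under 0.05 by edgeR was found in 2 members, beside 1196 of all 21063 tested genes. Among all tested genes 0.133% were higher and 0.0237% lower in KO1 than in KO2.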

How the data were processed

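A table deposited by the authors holds whole-number counts for each gene in 10 libraries, not normalized, and each of its 10 value columns was matched to a label. Per the labels' protocols, RNA was taken up in Trizol and sequenced from TruSeq libraries. Per the submitters' processing notes, the tools were RSEM 1.2.4, DESeq2 and fastp 0.20.0, and the builds were named as GRCh38 and hg38. Annotation, strand and rounding are not given in the sources used here. For 14 of the 35 members the row name carries an MSTRG locus name beside the Ensembl identifier, and what else such a locus holds is not given either. Totals were 16495116 to 20832700 counts per library, and 3 counts correspond to 0.136 to 0.198 CPM, a floor for counting error only.

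From these counts, edgeR 4.0.16 (R 4.3.3) with TMM factors and filterByExpr gave 21063 tested genes, which held 99.9% of the counts, and a quasi-likelihood fit with 1 mean for each of 5 groups over all 10 libraries (5 residual degrees of freedom). The 667 rows without an Ensembl identifier (0.33% of counts) stayed in. Standard errors are the size of the log2 change divided by the root of F. The code of the fit was run on simulated counts in which far fewer genes changed than here. That run does not show how the fit behaves in these data. The chi-square per gene between paired libraries was 1.91 to 3.43, and no library was treated as a duplicate.

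The members and all lists were chosen with earlier results of these data known. Genes given in full are, per role, the 3 with the largest knockout change, those called against the majority, both factors, the 4 largest each way among members called alike in both rescues against WT, and the first 3 by adjusted p between the rescues. Of each list of other genes, up to 3 called genes with the largest change and a mean of at least 2 CPM are named (1 such gene is not reported here); MITF, GRN between the rescues and the named markers of cell types were added after their values were seen. Alternatives were DESeq2 1.42.0, other scalings and filters, a replicate block, leaving out each library in turn, fitting only the compared groups, and a fit without the KO+CFLAR libraries.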

Additional observations from a re-analysis of the deposited data

Results flagged for a closer look

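All 35 members were screened, and in 3 of them 1 of the 4 knockout libraries stood apart from the other 3 by Dixon's criterion for 4 values. That is a gap to its neighbour that took up most of the range of the 4, which chance alone gives in about 1 of 20 groups. LAMP2 was at 273.8 CPM in KO2 replicate 2 and at 264.4 to 265.6 CPM in the others. CTSL was at 96.6 CPM in KO1 replicate 1 and at 105.8 to 107.5 CPM in the others. GAA was at 90.6 CPM in KO1 replicate 2 and at 96.4 to 96.9 CPM in the others. All of these values lie far above WT, and no library was the distant value in more than 1 of these genes.

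The rescued groups differed from each other in 4 members by a direct test (edgeR, adjusted over all tested genes), with lower values in the libraries labelled KO+CFLAR. The log2 differences were -0.28 in TPP1, -0.27 in NPC2, -0.24 in CD63 and -0.20 in GRN, with 2 of 2 libraries on the lower side in each. None of them was called without replicate 1 or 2 of KO+STAMBP or without KO+CFLAR replicate 1.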

How the results depend on the processing

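The count of called members, both directions added, stayed within 1.5 times its value under every alternative run for the knockout against WT (31 to 33, and 29 to 33 for KO1 or KO2 alone), for the rescues against the knockout (30 to 32) and for the rescues against WT (12 to 18). By direction it moved more: members higher than WT were 4 to 10 in KO+STAMBP (9 as reported) and 1 to 4 under the label KO+CFLAR (4 as reported), members lower than WT in the knockout were 1 or 2, and members higher than the knockout were 1 to 3 in KO+STAMBP and 0 to 2 under the label KO+CFLAR (1 as reported in each). Scaling by library size alone moved the median of all genes by -0.18 (log2) in KO vs WT, with 6646 genes higher and 9450 lower in place of 7750 and 8305, and by 0.21 and 0.20 in KO+STAMBP vs KO and in KO+CFLAR vs KO. The members' medians were then 1.09, -1.18 and -1.34. Under it PSAP changed sign against WT (KO -0.0088, KO1 -0.0117, KO2 -0.0059), and so did ATP6AP1 (KO -0.0621, KO1 -0.0415, and against the knockout 0.103 in KO+STAMBP and 0.0827 under the label KO+CFLAR). Between KO1 and KO2, 33 genes of all were called, 251 with no filter on low counts and 20 to 58 with each library left out (20 without KO2 replicate 2, 58 without KO1 replicate 2). Between the libraries labelled KO+CFLAR and KO+STAMBP, 229 genes were called, 364 with DESeq2, 780 with no filter and 27 to 313 with each library left out (27 and 29 without replicate 1 or 2 of KO+STAMBP, 52 without KO+CFLAR replicate 1). Of the members there, 4 were called, 2 with only the groups compared and 0 to 4 with each library left out (0 without those same 3 libraries, 1 without either KO2 library, 2 without either WT library). The causes were not tested.

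The labels do not say what a replicate number shares, and same-numbered libraries did not deviate together (correlations of -0.0209 to 0.0719 over 10 pairs of groups). With the replicate number as a block, 33, 33 and 32 members were called in KO, KO1 and KO2 vs WT, 31 and 32 in the rescues vs KO, 17 and 17 in the rescues vs WT, 0 between KO1 and KO2 and 4 between the rescues. Over all genes the block gave 16036, 15331, 15363, 16356, 16367, 7331, 7121, 30 and 301 calls in the same order.

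Groups of 2 libraries and 5 residual degrees of freedom limit every comparison. The libraries hold bulk RNA, so that a change in the mix of cells and a change within cells give the same values. CTSF could not be tested at this depth.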
